A study of Rattus norvegicus with 10 samples.

Results

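The translation initiation factors (EIF) and elongation factors (EEF) of the rat choroid plexus were described in HFD-fed and control rats. The members were the genes whose symbol starts with EIF or EEF in the symbol columns of the study's tables, linked by Ensembl identifier to the deposited values. Of 32883 genes listed for each rat, 27 were members. Of these, 26 came from a copy of the table of all transcribed genes, shortened to its 1997 most abundant genes. EIF2B2 alone came from the study's table of 46 genes that differed between the diets. Low expressed translation factors are therefore missing by construction, and the diet difference of EIF2B2 is given as a description with no test. Symbols held by 2 identifiers, 7 in the study's tables, were left out before the members were chosen. Whether translation factors were among them is not given here.

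RNA was sequenced from the choroid plexus, which lines parts of the brain ventricles, of 10 female Wistar rats aged 27 weeks, with 1 library per rat. After 21 weeks of diet, 5 rats had received the nutrient source-matched control diet (10% of energy from fat) and 5 the HFD (60%), and no other treatment was given. The comparison asks whether the diet alters transcription in the tissue that secretes cerebrospinal fluid. The study's methods state that experimental rats were chosen by body weight, light control rats and heavy HFD-fed rats, and that plexus tissue of the lateral and the fourth ventricle was collected.

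Initiation factors bring the initiator tRNA, the messenger RNA and the ribosomal subunits together at a start codon. EIF2 carries the initiator tRNA as a GTP-bound trimer and is recharged by the exchange factor EIF2B, EIF3 is a many-subunit scaffold on the small ribosomal subunit, and the EIF4 factors bind and unwind the capped end of the message. Elongation factors then deliver each aminoacyl-tRNA and move the ribosome along the message. The choroid plexus epithelium secretes large amounts of protein, transthyretin above all, into the cerebrospinal fluid.

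Values are TPM, each gene's share of the transcripts of a rat with transcript length taken into account, so that levels can be compared between genes. The number of reads behind each value is not given by the files. Each rat's TPM were divided by a median-ratio factor, 0.747 in control rat 1 and between 0.944 and 1.13 elsewhere, and these are called rescaled TPM. Control rat 1 stood apart: 1842 of its genes differed more than 2-fold from the remaining rats, where each remaining rat had 171 to 235 such genes. Results are therefore given with and without it. The mean effective transcript length that the deposited values imply was 788.7 bases in control rat 1 and 874.0 to 967.5 in the remaining rats. All 8 epithelial markers that were looked for, TTR among them, were present in every rat, and their summed TPM as deposited was 400603 in control rat 1, 326874 to 346079 in the other control rats and 326949 to 386456 in HFD-fed rats. This sum was nearly all TTR, and of the 8 markers 1 was above and 6 were below every other control rat in control rat 1. Of the markers of other cell types, 1 of 3 endothelial, 1 of 2 mural, 1 of 4 stromal, 1 of 4 macrophage and 1 of 4 blood markers could be named, and none of these was at 0, while 0 of 3 neuronal and 0 of 3 glial markers could be named. TPM as deposited in control rat 1 against the other control rats were 73 against 56 to 63 for endothelial PLVAP, 32 against 109 to 115 for mural RGS5, 87 against 141 to 235 for stromal DCN, 146 against 157 to 227 for macrophage CD74 and 914 against 856 to 1626 for blood HBB. In HFD-fed rats these 5 genes had 52 to 76, 109 to 142, 181 to 215, 197 to 250 and 788 to 1657 in the same order. In bulk tissue, fewer cells of a type and less RNA per cell cannot be told apart. The part of these markers and of the transcript length in the values of control rat 1 was not tested.

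No translation factor of the 26 tested passed the adjusted test between the diets, and the diets overlapped for all 27 members. The study's own test used a count model on raw counts and called 46 genes, EIF2B2 among them. None of the 26 members tested had a Benjamini-Hochberg adjusted p under 0.05 in limma across 12198 genes, where 0 genes (0% of those tested) passed, so that the adjusted test set no gene apart at all. The adjusted p of the members ran from 0.542 upwards. An unadjusted p under 0.05 was found for 1 of the 26 members (3.85%), against 8.59% of all genes tested, and this was EIF3L, a subunit of EIF3, which was lower in HFD-fed rats. By direction, 4.83% of all genes were lower and 3.76% higher in HFD-fed rats at that level. With TPM as deposited, no member had an unadjusted p under 0.05, against 5.11% of all genes tested (1.26% lower and 3.85% higher). For none of the 27 genes did the diets separate without overlap, against 3.42% of all genes as rescaled TPM and 1.66% as deposited. Rescaling by the upper quartile gave 0 as well, against 3.34%. The same count was 0 without control rat 1, against 4.96% as rescaled TPM and 2.61% as deposited.

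The log2 fold changes from control diet to HFD ran from -0.22 for EIF3L to 0.13 for EIF5, with 12 members above 0 and 15 below. Of all 12198 genes tested, 6426 were above 0 and 5772 below. With TPM as deposited, 18 members were above 0 and 9 below, beside 8923 and 3298 of 12221 genes tested. Leaving out control rat 1 on that scale gave 11 and 16, beside 6629 and 5592. The median of the members was -0.047 as rescaled TPM, beside 0.013 for all genes tested. Without EIF2B2, which was taken for its diet difference, it was -0.023. TPM as deposited moved the median of all genes by 0.102, and relative to it the median of the members was -0.059, against -0.06 with rescaled TPM. With EIF2B2 left out, the same values were -0.035 and -0.036. The 95% intervals of 25 of the 26 tested genes lay within 0.5 of 0 on the log2 scale, and that of EIF3K reached -0.54. Without control rat 1 the intervals of all 26 lay between -0.27 and 0.25. Of the 27 fold changes, 7 were then above 0 and 20 below, beside 6170 and 6028 of all genes tested. EIF3L was again the single one of the 26 members (3.85%) with an unadjusted p under 0.05 in limma, against 11.8% of all genes tested (6.26% lower and 5.5% higher).

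**Figure D1:**
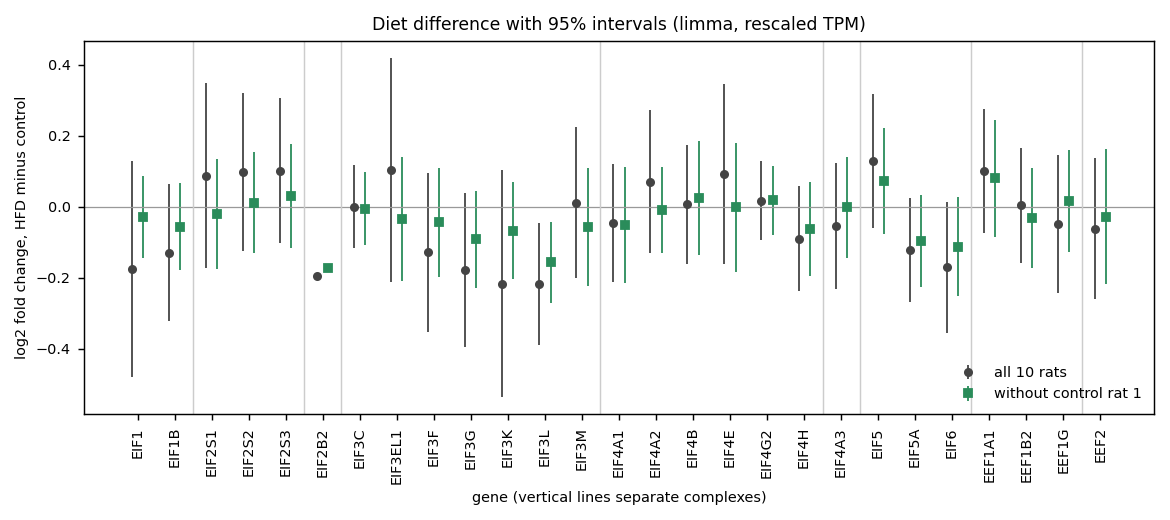
Log2 fold change from control diet to HFD (vertical axis, limma on rescaled TPM) of each of the 27 genes, with 95% intervals except for EIF2B2, for all 10 rats (circles) and without control rat 1 (squares). The interval of EIF3L lies below 0 with and without that rat, while the 3 EIF2 subunits move from near 0.1 to near 0.

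The levels of the members spanned the range from EIF2B2, at a mean rescaled TPM of 26.8 over the 10 rats, to EEF1A1, at 2450.5. EEF1A1, which delivers aminoacyl-tRNA to the ribosome, was above every other member in every rat and made up 38.0% to 44.1% of the summed TPM of the 27 genes. EIF4A2 followed at 439.9, then EIF5A at 323.9, EEF2 at 275.0, EIF1 at 259.4, EIF4G2 at 256.4, EEF1G at 222.3, EIF4A1 at 187.9 and EEF1B2 at 148.6. From EIF5A to EEF1B2 the range over the rats of each gene overlapped that of the gene above it. A gap without overlap separated EEF1B2, with a lowest rat of 131.6, from EIF4H, with a highest rat of 119.3, and another separated EIF2S1 from EIF2B2. Since EIF2B2 alone did not come from the shortened abundance table, factors at levels within the second gap may be missing by construction. The 17 genes from EIF4H, at 107.4, to EIF2S1, at 47.4, formed a series of overlapping neighbours. All 27 genes passed the minimum mean of 1. The lowest member of the abundance table was EIF2S1, with a control mean of 45.6 TPM as deposited, and the next was EIF4A3 at 50.2.

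**Figure D2:**
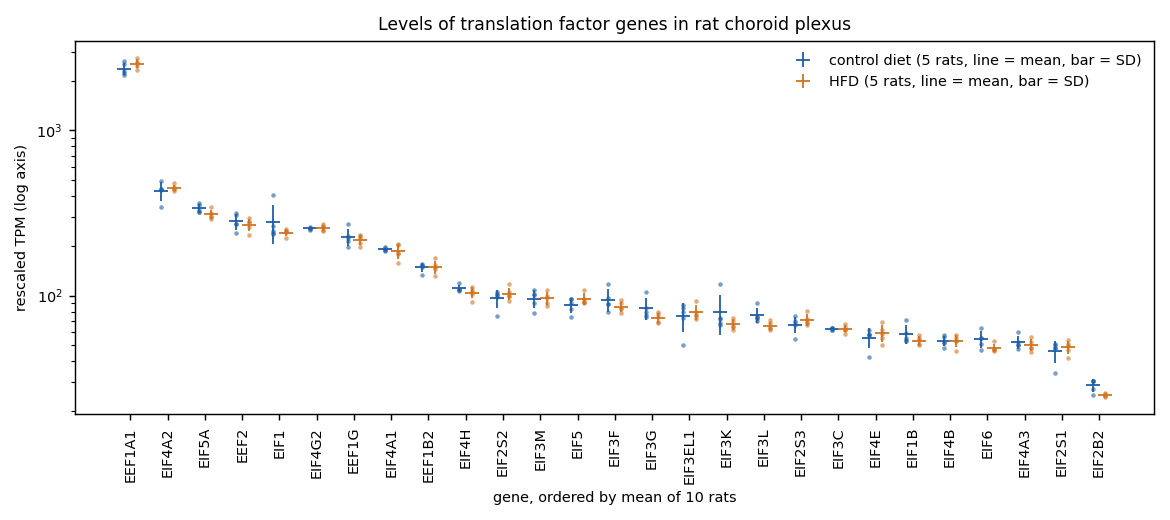
Rescaled TPM (log axis) of the 27 genes, ordered by the mean of 10 rats, with each rat as a point, the mean of 5 rats of a diet as a line and the SD as a bar. EEF1A1 stands above all others and EIF2B2 below, and the diets lie close together for each gene.

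Of the 9 most abundant members, 6 shared a sequence feature that the rule did not use. RefSeq start-site windows of the GRCr8 build were found by symbol for 25 of the 27 genes, all but EIF3EL1 and EIF4B. In the 60 bases before the start, read on the strand of the gene, the letters TATAA, the core of the TATA box, stood in 6 of the 25 genes (24.0%), against 4.99% of 33469 windows in the table. The mean level of these 6 genes, as rescaled TPM, lay between 148.6 and 2450.5 (median 267.2), and that of the others between 26.8 and 323.9 (median 73.3). Since the members were taken from the most abundant genes, no test was made. The 60 bases before the start of the 6 genes are shown with TATAA in capitals, to let its place be compared.
EEF1A1, chr8:88225070-88225129, minus strand: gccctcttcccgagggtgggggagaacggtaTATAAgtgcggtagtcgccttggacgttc
EIF4A2, chr11:91275324-91275383, minus strand: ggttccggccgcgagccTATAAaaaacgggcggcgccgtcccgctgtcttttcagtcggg
EEF2, chr7:9189239-9189298, minus strand: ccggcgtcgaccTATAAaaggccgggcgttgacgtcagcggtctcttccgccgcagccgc
EIF1, chr10:85747077-85747136, plus strand: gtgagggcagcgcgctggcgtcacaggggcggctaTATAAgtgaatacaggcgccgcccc
EIF4A1, chr10:54888603-54888662, minus strand: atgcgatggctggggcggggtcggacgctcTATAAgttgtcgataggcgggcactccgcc
EEF1B2, chr9:72074031-72074090, plus strand: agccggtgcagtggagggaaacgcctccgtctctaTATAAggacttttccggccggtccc

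The first T of TATAA lay 25 to 48 bases before the start in these genes. EIF5A, EIF4G2 and EEF1G were as abundant as several of the 6 genes and had no TATAA in these 60 bases. In the whole 250 bases, on both strands, TATAA stood in 32.0% of the 25 genes and in 23.97% of all windows. In the 250 bases before the start, on both strands, the letters CCGGAAG, a core of ETS family sites, stood in 6 of the 25 genes (24.0%), against 7.27% of all windows. These were EIF1B, EIF2B2, EIF3G, EIF3K, EIF3M and EIF6, with mean rescaled TPM from 26.8 to 96.1. The letters CCAAT stood in 36.0% of the 25 genes and in 34.02% of all windows. The 60 bases before the start of EIF2B2, the gene taken from the table of differing genes, are shown with CCGGAAG in capitals.
EIF2B2, chr6:110597919-110597978, plus strand: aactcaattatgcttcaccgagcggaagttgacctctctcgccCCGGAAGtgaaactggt

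Such matches are a description of these letters in RefSeq windows. The median GC content of the 250 bases was 59.6% in the 25 genes and 51.2% in all windows. EIF3L had the lowest, at 46.0%.

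EIF1 and its paralogue EIF1B help the scanning ribosome to choose the start codon. EIF1 (ENSRNOG00000033765) had rescaled TPM of 407, 238, 237, 246 and 262 in control rats 1 to 5 and of 241, 245, 242, 253 and 222 in HFD-fed rats 1 to 5. The first control rat was far above the 9 others, and those 9 overlapped. The log2 fold change was -0.18 (95% interval -0.48 to 0.13), and without control rat 1 it was -0.03. EIF1B (ENSRNOG00000018848) had 71.5, 59.0, 54.2, 55.7 and 53.2 in control rats and 57.6, 50.8, 53.7, 55.0 and 50.0 in HFD-fed rats, again highest in control rat 1. Its log2 fold change was -0.13 (95% interval -0.32 to 0.06), and -0.06 without control rat 1. The ratio of EIF1 to EIF1B within a rat, on which the scaling has no effect, was 4.69 ± 0.647 in control rats and 4.51 ± 0.233 in HFD-fed rats (SD, n = 5 each; exact permutation test, two-sided, p = 0.683). This is 1 of 13 such ratios, chosen after the values had been seen.

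The 3 subunits of EIF2 had the same extreme rats. EIF2S1 (ENSRNOG00000009432), the alpha subunit that stress kinases phosphorylate, had 33.8, 47.9, 50.6, 50.4 and 48.4 in control rats and 46.7, 53.9, 51.2, 49.8 and 42.0 in HFD-fed rats. EIF2S2 (ENSRNOG00000017447), the beta subunit, had 75.1, 106, 100.1, 102 and 98.1 in control rats and 93.1, 117, 99.7, 98.8 and 105 in HFD-fed rats. EIF2S3 (ENSRNOG00000060793), the GTP-binding gamma subunit, had 54.4, 75.1, 66.0, 69.8 and 68.4 in control rats and 68.0, 81.1, 72.5, 68.7 and 66.4 in HFD-fed rats. For all 3 subunits control rat 1 was the lowest of the 10 rats and HFD rat 2 the highest, and the other rats of both diets overlapped. As deposited, control rat 1 was again the lowest for all 3, and HFD rat 2 was the highest for EIF2S3 alone. Their log2 fold changes were 0.09, 0.10 and 0.10 and without control rat 1 became -0.02, 0.01 and 0.03. The ratios between subunits in control rat 1 lay above those of the other control rats, and that of EIF2S3 to EIF2S1 above every other rat. The ratio of EIF2S2 to EIF2S1 was 2.23 in control rat 1, 1.98 to 2.21 in the other control rats and 1.945 to 2.497 in HFD-fed rats. That of EIF2S3 to EIF2S1 was 1.61, 1.305 to 1.569 and 1.381 to 1.583. By the exact permutation test these ratios gave p = 0.96 and p = 0.841 between the diets.

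EIF2B2 (ENSRNOG00000006467) encodes the beta subunit of EIF2B, one of its regulatory subunits, and mutations in the EIF2B genes cause a leukodystrophy in humans. It had rescaled TPM of 30.4, 24.9, 27.3, 30.4 and 30.3 in control rats and 25.0, 25.2, 24.2, 25.7 and 24.7 in HFD-fed rats. Control rat 2 lay among the HFD-fed rats, while the other 4 control rats were above all of them. The mean was 28.6 ± 2.49 in control rats and 24.9 ± 0.563 in HFD-fed rats (SD, n = 5 each). The log2 fold change was -0.19, and -0.17 without control rat 1. As rescaled TPM, the HFD-fed rats varied less for EIF2B2 than for any other member, with a coefficient of variation of 2.26%, and of 9.389% as deposited. Since EIF2B2 alone was chosen for its diet difference and the others by abundance, this rank is a description only. With TPM as deposited the HFD-fed rats spread from 22.85 to 28.25 and the control rats from 22.69 to 31.54, where control rat 1 was now the lowest, and the log2 fold change was -0.09. The close grouping of the HFD-fed rats and the place of control rat 1 thus depended on the rescaling.

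**Figure D3:**
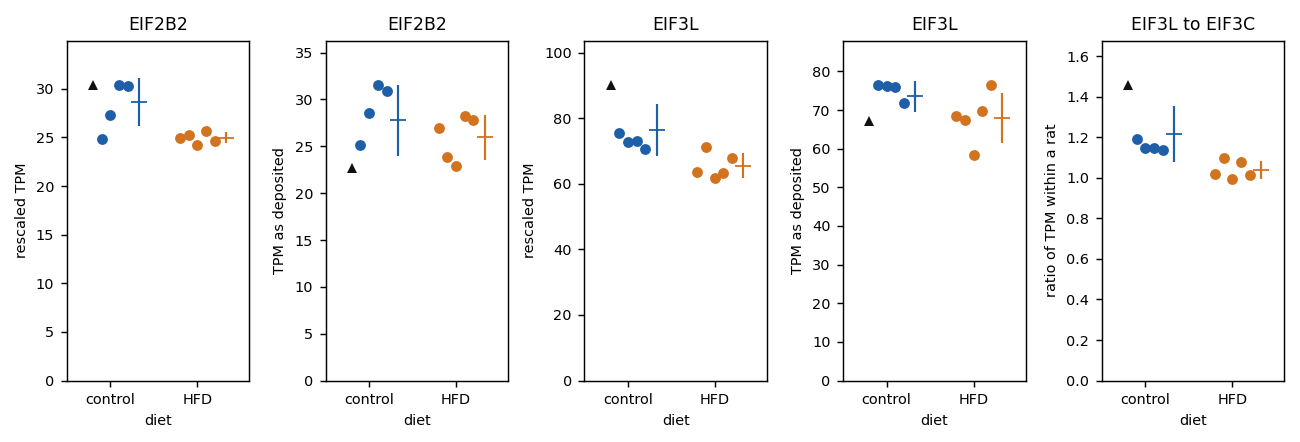
EIF2B2 and EIF3L by rat as rescaled TPM and as TPM deposited, and the ratio of EIF3L to EIF3C within each rat, with control rat 1 as a triangle and the mean and SD of 5 rats beside the points. For the ratio, every control rat lies above every HFD-fed rat, while the deposited TPM of both genes overlap.

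EIF3 was represented by 7 genes, and 5 had a log2 fold change below 0 and 2 above, beside 5772 and 6426 of all genes tested. Without control rat 1 all 7 were below 0, with a median of -0.057, beside 6028 of 12198 genes tested below 0. With TPM as deposited, 4 were below 0 and 3 above, beside 3298 and 8923 of 12221 genes tested. Leaving out control rat 1 on that scale gave 6 and 1, beside 5592 and 6629. EIF3L (ENSRNOG00000011020) had rescaled TPM of 90.1, 75.5, 72.7, 73.1 and 70.6 in control rats and 63.5, 71.1, 61.8, 63.4 and 67.8 in HFD-fed rats. Only HFD rat 2 reached into the control range, just above control rat 5. The mean was 76.4 ± 7.85 in control rats and 65.5 ± 3.83 in HFD-fed rats (SD, n = 5 each; exact permutation test, two-sided, p = 0.0159). The log2 fold change was -0.22 (95% interval -0.39 to -0.05; limma adjusted p = 0.542). It was -0.16 without control rat 1. With TPM as deposited, 67.3, 76.4, 76.1, 75.9 and 71.9 in control rats stood against 68.5, 67.3, 58.4, 69.7 and 76.5 in HFD-fed rats, which overlapped (log2 fold change -0.11, exact permutation p = 0.167).

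EIF3C (ENSRNOG00000018761), a core subunit that joins EIF3 to other initiation factors, was the steadiest of the 7 genes in control rats as rescaled TPM. Its coefficient of variation in control rats was 13.94% with TPM as deposited, above the 5.375% of EIF3L. It had 61.8, 63.4, 63.5, 63.8 and 62.1 in control rats and 62.3, 64.9, 62.1, 58.7 and 66.9 in HFD-fed rats, with a 95% interval of the log2 fold change from -0.12 to 0.12. The ratio of EIF3L to EIF3C within a rat, which needs no scaling, was 1.458, 1.191, 1.146, 1.147 and 1.136 in control rats and 1.02, 1.10, 0.995, 1.08 and 1.01 in HFD-fed rats. Every control rat was above every HFD-fed rat, with and without control rat 1 (log2 difference -0.22, exact permutation test, two-sided, p = 0.00794, the lowest value possible at n = 5 each). Adjusted over the 13 ratios, which were chosen after the values had been seen, p was 0.103. Against EIF3EL1, EIF3F, EIF3G, EIF3K and EIF3M, the ratio of EIF3L did not separate the diets, with exact permutation p from 0.0794 to 1.00. EIF3C was thus the only one of these 6 partners for which the ratio had no overlap. As rescaled TPM, EIF3C had a log2 fold change of -9.4e-06. The log2 difference of the ratio therefore repeats that of EIF3L on the rescaled scale and is not a separate result.

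The other EIF3 genes showed overlap between the diets. EIF3K (ENSRNOG00000020495), which lies beside EIF3L in the complex, had 118, 68.5, 73.6, 65.9 and 72.2 in control rats and 65.3, 73.1, 70.5, 64.1 and 61.7 in HFD-fed rats. Its log2 fold change of -0.22 (95% interval -0.54 to 0.10) came to -0.07 without control rat 1, which held the high value. EIF3G (ENSRNOG00000020619), an RNA-binding subunit, had 106, 73.8, 79.4, 84.2 and 76.0 in control rats and 77.6, 79.2, 73.8, 67.9 and 69.2 in HFD-fed rats. EIF3F (ENSRNOG00000015221) had 118 in control rat 1, 79.7 to 96.3 in the other control rats and 78.0 to 93.8 in HFD-fed rats. For both genes the high control mean came with control rat 1, and the log2 fold changes went from -0.18 to -0.09 for EIF3G and from -0.13 to -0.04 for EIF3F without it. EIF3M (ENSRNOG00000012738) and EIF3EL1 (ENSRNOG00000027690) were instead lowest in control rat 1. EIF3M had 78.8 in that rat, 89.6 to 108 in the other control rats and 86.7 to 109 in HFD-fed rats. EIF3EL1 had 50.1, 87.2, 73.4, 84.4 and 79.0 in control rats and 76.8, 92.7, 79.3, 75.3 and 72.1 in HFD-fed rats. RefSeq gives Eif3el1 both as a gene of its own and as an older name of Eif3e, and near-identical copies can share reads, so that the identity of this gene is uncertain.

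The EIF4 factors had log2 fold changes between -0.09 and 0.09, with overlap between the diets for each. EIF4G2 (ENSRNOG00000017158), a scaffold related to EIF4G that lacks the site for the cap-binding protein, had 255, 251, 254, 259 and 255 in control rats and 248, 271, 262, 264 and 245 in HFD-fed rats. Its coefficient of variation of 1.13% in control rats, control rat 1 included, was the lowest of the 27 genes as rescaled TPM, and it was 13.08% as deposited. The 95% interval of its log2 fold change was -0.10 to 0.13. EIF4A2 (ENSRNOG00000001815) and EIF4A1 (ENSRNOG00000030628) encode the paralogous RNA helicases of the cap complex. EIF4A2 had 343, 496, 441, 435 and 439 in control rats and 429, 479, 456, 439 and 443 in HFD-fed rats, with the low value again in control rat 1. EIF4A1 had 188, 194, 196, 186 and 189 in control rats and 182, 203, 205, 179 and 158 in HFD-fed rats. Its HFD-fed rats spread more than its control rats as rescaled TPM, and less as deposited (coefficient of variation 4.014% against 13.82%). EIF4A2 exceeded EIF4A1 in every rat, by 1.82 times in control rat 1, 2.25 to 2.55 times in the other control rats and 2.23 to 2.81 times in HFD-fed rats (exact permutation test between the diets, p = 0.31).

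EIF4E (ENSRNOG00000052343), the cap-binding protein, had 42.5, 57.8, 58.3, 62.2 and 57.4 in control rats and 50.5, 69.3, 58.1, 62.1 and 55.6 in HFD-fed rats. Its log2 fold change of 0.09 (95% interval -0.16 to 0.35) was -0.003 without control rat 1. Its ratio to EIF4G2 was 0.166 in control rat 1 and 0.204 to 0.255 in the other 9 rats. EIF4H (ENSRNOG00000001454) and EIF4B (ENSRNOG00000010103), which assist the helicase, had log2 fold changes of -0.09 and 0.01. EIF4H ran from 106 to 119 in control rats and from 91.8 to 113 in HFD-fed rats, and EIF4B from 48.0 to 57.3 and from 46.5 to 57.9. EIF4A3 (ENSRNOG00000045791), a relative of these helicases that belongs to the exon junction complex, had 60.1 in control rat 1, 47.6 to 52.1 in the other control rats and 45.5 to 56.0 in HFD-fed rats.

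EIF5, EIF5A and EIF6 act at different steps despite their like names. EIF5 (ENSRNOG00000010218), which triggers GTP hydrolysis by EIF2, had 74.3, 94.8, 95.3, 90.7 and 82.5 in control rats and 91.8, 109, 94.8, 91.4 and 90.6 in HFD-fed rats. It had the highest log2 fold change of the members, 0.13 (95% interval -0.06 to 0.32; exact permutation p = 0.222), and 0.07 without control rat 1. EIF5A (ENSRNOG00000016478), a hypusine-bearing factor that aids elongation at proline stretches, had 363, 355, 329.5, 323 and 318 in control rats and 303, 343, 316, 297 and 292 in HFD-fed rats. All HFD-fed rats but the second lay below every control rat (log2 fold change -0.12, 95% interval -0.27 to 0.02, exact permutation p = 0.0635). On the deposited scale control rat 1 lay below all HFD-fed rats, and the log2 fold change of EIF5A was -0.02 (exact permutation p = 0.833). EIF6 (ENSRNOG00000049497), which keeps free large ribosomal subunits from joining, had 63.8, 51.0, 55.1, 55.2 and 47.0 in control rats and 47.2, 52.9, 47.8, 46.1 and 46.6 in HFD-fed rats, with overlap (log2 fold change -0.17, 95% interval -0.36 to 0.01, exact permutation p = 0.0714).

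The 4 elongation factors were among the 9 most abundant members, and each overlapped between the diets. EEF1A1 (ENSRNOG00000009439) had 2233, 2163, 2293, 2538 and 2611 in control rats and 2582, 2752, 2554, 2460 and 2319 in HFD-fed rats. Its log2 fold change of 0.10 (95% interval -0.07 to 0.27; exact permutation p = 0.175) was 0.08 without control rat 1. EEF1A1 has many processed pseudogenes, among which reads can be split. EEF1B2 (ENSRNOG00000024186) and EEF1G (ENSRNOG00000020075) belong to the complex that recharges EEF1A1 with GTP. EEF1B2 had 134, 154, 150.0, 155 and 149 in control rats and 148, 168, 152, 145 and 132 in HFD-fed rats. EEF1G had 269.5, 222, 198, 230.0 and 214 in control rats and 230.2, 234, 222, 207 and 198 in HFD-fed rats. Both overlapped between the diets, and control rat 1 was low for EEF1B2 and high for EEF1G, so that their ratio was 0.496 in that rat and 0.645 to 0.760 in the other 9. EEF2 (ENSRNOG00000020266), which moves the ribosome by a codon, had 308, 314, 240.1, 272 and 272 in control rats and 277, 295, 262, 234 and 277 in HFD-fed rats, a log2 fold change of -0.06 (95% interval -0.26 to 0.14). The ratio of EEF1A1 to EEF2 was 8.52 ± 1.34 in control rats and 9.46 ± 0.786 in HFD-fed rats (SD, n = 5 each; exact permutation p = 0.254).

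Control rat 1 set much of the spread between control rats. The median coefficient of variation of the 27 genes was 11.4% in control rats, 5.02% in the 4 control rats without rat 1 and 7.19% in HFD-fed rats, and with TPM as deposited 13.08%, 4.74% and 6.24%. Control rat 1 was above all 9 other rats for 11 members and below all of them for 8, against 32.6% and 33.6% of all genes tested. Above were EIF1, EIF1B, EIF3F, EIF3G, EIF3K, EIF3L, EIF4H, EIF4A3, EIF5A, EIF6 and EEF1G, by up to 1.68 times the mean of the other control rats for EIF3K. Below were the 3 EIF2 subunits, EIF3EL1, EIF3M, EIF4A2, EIF4E and EIF5, down to 0.619 times for EIF3EL1. With TPM as deposited it was above for 2 members, EIF1 and EIF3K, and below for 20, against 6.64% and 59.7% of all genes. The directions of the other 9 high genes thus depended on the rescaling, while EIF1 and EIF3K were high and the 8 low genes low on both scales. HFD rat 2 was the highest rat for 11 members as rescaled TPM and for 2 as deposited.

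**Figure D4:**
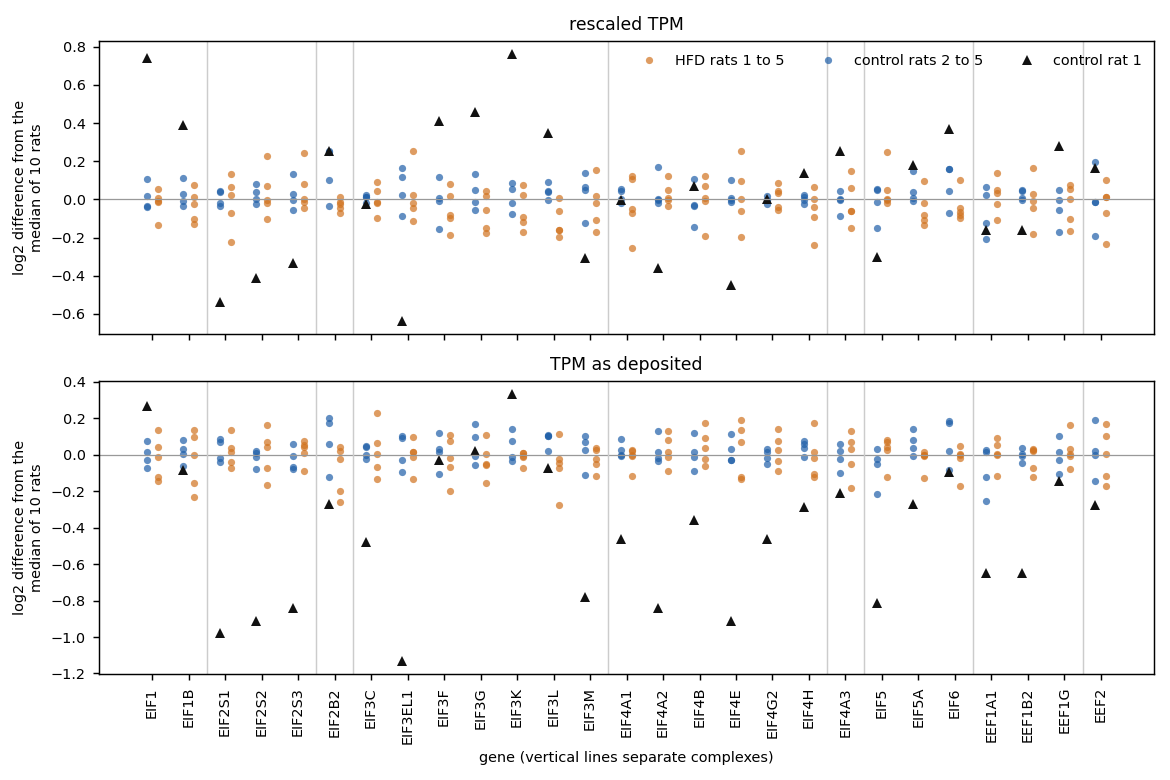
Log2 difference of each rat from the median of 10 rats (vertical axis) for each of the 27 genes, as rescaled TPM (upper panel) and as TPM deposited (lower panel). Control rat 1 (triangles) lies far from the other rats in both directions for rescaled TPM and mostly below them for deposited TPM, with EIF1 and EIF3K above the other rats in both panels.

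The genes of cytosolic ribosomal proteins, on which the factors act, are given beside them. Of 65 ribosomal protein genes named in the tables, 62 had a log2 fold change below 0, beside 5772 of 12198 genes tested. An unadjusted p under 0.05 in limma was found for 12 of the 65, all lower in HFD-fed rats, against 4.83% of all genes tested in that direction. With TPM as deposited, 48 of the 65 were below 0, beside 3298 of 12221 genes tested, and 6 had an unadjusted p under 0.05, all lower, against 1.26% of all genes in that direction. Their median log2 fold change was -0.17 as rescaled TPM and -0.09 without control rat 1, where that of the translation factors was -0.05 and -0.03. With EIF2B2 left out, the latter were -0.02 and -0.03. As deposited, the medians were -0.06 for the ribosomal genes, 0.06 for the translation factors (0.08 without EIF2B2) and 0.12 for all genes. Values of both sets come from the same rats, and the difference between the sets was not tested.

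Of 56 regulators and partners of translation factors, 11 could be named through the tables, and 2 of them had an unadjusted p under 0.05, both lower in HFD-fed rats, against 4.83% of all genes in that direction, and none by the adjusted p. The count was 0 of 11 with TPM as deposited, against 5.11% of all genes in either direction. It was 1 of 11 without control rat 1, against 11.8%. AKT1, a growth signalling kinase, had 106.8, 92.8, 101.9, 94.7 and 91.7 in control rats and 85.5, 89.8, 86.9, 87.6 and 87.2 in HFD-fed rats. As rescaled TPM the highest HFD-fed rat lay below the lowest control rat, where 3.42% of all genes tested had no overlap in either direction. The log2 fold change was -0.16 (limma, unadjusted p = 0.0222, adjusted p = 0.543). With TPM as deposited the diets overlapped for AKT1, with control rat 1 the lowest rat at 79.75. On that scale the log2 fold change was -0.05 (limma, unadjusted p = 0.579). TPT1, an abundant protein whose message is under the same translational control as those of ribosomal proteins, had 2392, 2153, 2049, 2266 and 2203 in control rats and 1852, 2211, 2041, 1948 and 1679 in HFD-fed rats. These overlapped, and the log2 fold change was -0.19 (limma, unadjusted p = 0.047, adjusted p = 0.573). The unadjusted p of TPT1 in limma was 0.069 without control rat 1 and 0.293 with TPM as deposited. ATF4, the transcription factor made when EIF2S1 is phosphorylated, had 301 in control rat 1, 176 to 209 in the other control rats and 168 to 237 in HFD-fed rats, with a log2 fold change of -0.14 (limma, unadjusted p = 0.335). It was -0.02 for ATF4 without control rat 1 and -0.04 with TPM as deposited.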

How the data were processed

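RNA from the choroid plexus of 10 rats, 5 per diet and 1 library per rat, was sequenced. Per the labels and the study's methods, the authors used STAR (2.7.2a in the submitters' processing notes, another release in the methods) with the Rnor_6.0 build, and deposited RSEM 1.3.3 values as TPM and FPKM, rounded to 2 decimals. FPKM were a constant multiple of TPM within a rat, so that TPM alone were tested. Raw counts were not used here. The methods give a sequencing output, but the files give no count of reads for any rat, so that no counting error is given.

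TPM were rescaled by median ratios over 12037 genes. Those genes whose rescaled mean reached 1 TPM (12198) were tested with limma 3.58.1 in R 4.3.3 (mean-variance trend, diet as the only term) on log2(TPM + 0.1), a scale that understates changes of low genes, with Benjamini-Hochberg adjustment. The step was tested on simulated data, with residuals shuffled over all rats within each gene, so that no single rat stood apart there. Genes given a small change, above that of any member here, were not recovered by the adjusted test, while most genes given larger changes were. Exact two-sided permutation tests covered 252 assignments. Alternatives were other rescalings, pseudocounts and minimum levels, array weights, a replicate block and leaving out each rat.

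The members and lists were chosen with earlier results of these data known. All 27 members are named, other genes where they are markers or regulators with an unadjusted p under 0.05, and ATF4 was added after its values were seen. The study's tables named 2015 identifiers, and 7 symbols held by 2 identifiers were left out. Both diets carry replicate numbers 1 to 5. The deviations of rats sharing a number correlated at -0.038 to 0.116, so that the numbers were not treated as pairs.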

Additional observations from a re-analysis of the deposited data

Results flagged for a closer look

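Dixon's ratio, the distance from an extreme rat to its neighbour over the whole spread of the 5 rats of a diet, was taken for each member as rescaled TPM. It passed the critical value of 0.71 in 9 of 54 groups, of which about 2.7 would pass by chance, and 7 of the 9 were due to control rat 1. Over all genes tested the share was alike, 14.4% of groups against 16.7% for the members, and control rat 1 accounted for 72.0% of those. That rat was high for EIF1 (407 against 237 to 262, ratio 0.853), EIF3K (118 against 65.9 to 73.6, ratio 0.852) and EIF3L (90.1 against 70.6 to 75.6, ratio 0.745). It was low for EIF2S1 (33.8 against 47.8 to 50.6, ratio 0.838), EIF2S2 (75.1 against 98.1 to 105.7, ratio 0.752), EIF4E (42.5 against 57.4 to 62.2, ratio 0.754) and EEF1B2 (133.8 against 148.8 to 154.6, ratio 0.725). HFD rat 2 was high for EIF5 (108.7 against 90.6 to 94.8, ratio 0.769) and EIF6 (52.9 against 46.1 to 47.8, ratio 0.747).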

How the results depend on the processing

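No member had an adjusted p under 0.05 in limma in any alternative, where 26 were tested and EIF2B2 was not. At an unadjusted p under 0.05 stood 1 member, EIF3L (3.85%, against 8.59% of all genes). That number was 2 with array weights (EIF3L and EIF6, against 15.4%), 0 with TPM as deposited and 0 with TPM as deposited and control rat 1 left out, the latter chosen after seeing the data. Leaving out 1 rat gave 1 to 3, against 6.51% to 11.8% of all genes, with EIF6 added without control rat 5 (2 members, against 9.98%) and EIF5A and EIF6 added without HFD rat 2 (3, against 7.85%). The median log2 fold change of all 27 members, -0.047, was 0.056 with TPM as deposited (-0.023 and 0.08 without EIF2B2). Without a single rat it ran from -0.074 to -0.013, nearest to 0 without HFD rat 4. Over all genes, 1048 with an unadjusted p under 0.05 became 624 with TPM as deposited, 619 with a minimum mean TPM of 10, which tests fewer genes, and 1874 with array weights. Members without overlap, 0 as reported, were 0 to 2 when 1 rat was left out. EIF3L separated without control rat 5 (3.7% of the members, against 5.97% of all genes). EIF3L and EIF5A did without HFD rat 2 (7.41%, against 5.81%). Without control rat 2 it was EIF2B2 (3.7%, against 5.42%). Control rat 2 was the only control rat among the HFD-fed rats for that gene. Since EIF2B2 was taken for its diet difference, its separation is a description only. Where an alternative moved these values and no construction is named, the cause was not tested.

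Small fold changes changed sign. TPM as deposited gave 0.103 for EIF3C, 0.056 for EIF4A1, 0.013 for EIF4H, 0.048 for EIF4A3, 0.055 for EEF1G and 0.041 for EEF2. Array weights gave -0.028 for EIF2S1, -0.005 for EIF2S2, -0.046 for EIF3EL1, -0.059 for EIF3M, -0.041 for EIF4E and -0.04 for EEF1B2. EIF3C had 0.027 with upper-quartile rescaling and 0.000 with a pseudocount of 1. TPM as deposited without control rat 1 gave -0.011 for EIF2S1, 0.005 for EIF3C, -0.023 for EIF3EL1, -0.046 for EIF3M, 0.008 for EIF4A3, -0.022 for EEF1B2 and 0.027 for EEF1G. Leaving out 1 rat gave -0.022 to 0.139 for EIF2S1, -0.022 to 0.025 for EIF3C, -0.034 to 0.166 for EIF3EL1, -0.057 to 0.055 for EIF3M, -0.085 to 0.009 for EIF4A1, -0.009 to 0.124 for EIF4A2, -0.029 to 0.054 for EIF4B, -0.003 to 0.146 for EIF4E, -0.002 to 0.035 for EIF4G2, -0.04 to 0.047 for EEF1B2 and -0.096 to 0.016 for EEF1G. The log2 ratios ran from -0.098 to 0.027 for EIF1 to EIF1B, -0.05 to 0.04 for EIF2S2 to EIF2S1, -0.025 to 0.051 for EIF2S3 to EIF2S1, -0.074 to 0.0 for EIF3L to EIF3G, -0.09 to 0.045 for EIF3L to EIF3K, -0.02 to 0.116 for EIF4E to EIF4G2 and -0.049 to 0.105 for EEF1B2 to EEF1G, while EIF3L to EIF3C stayed between -0.241 and -0.151.

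With the replicate number as a block, 0 members had an adjusted and 1 of 26 (EIF3L) an unadjusted p under 0.05 in limma, against 9.35% of all genes, and no sign changed. Only control rat 5 correlated best with its own number.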
